A study of Mus musculus with 20 samples.

Results

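Messenger RNA of 7 Polycomb genes was followed in mouse liver and in mouse subcutaneous adipose tissue (SAT). They are Cbx7, Cbx2, Cbx6 and Cbx8, which encode chromodomain proteins, Bmi1, which encodes a partner of those proteins, and Ezh1 and Ezh2, which encode histone methyltransferases. Each of the 7 symbols matched 1 entry among the 40440 entries of the gene table. The 7 names were listed with earlier results of these data known. Cbx7 ranked 3 by p among the 17078 genes tested for a difference between livers after removal of visceral adipose tissue (VAT) and sham livers, and what chose the other 6 is not recorded. The liver values after surgery are therefore given as a description, with no test of the 7 genes.

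The 20 RNA libraries came from male C57BL/6J mice without engineered alleles, 5 libraries in each of 4 groups. Mice aged 8 to 9 months had their epididymal visceral fat pads taken out, or had a sham operation in which the abdomen was opened and the pads were left in place. All of them were then given a high-fat diet, so both the operated and the sham groups carry that diet. The groups are VAT removed liver, sham liver, VAT removed SAT and sham SAT. The study asked how the removal of visceral fat alters the other tissues of mice on this diet. Nothing in the labels says whether liver and SAT libraries of the same number came from the same mouse, and p-values measure the spread between these libraries.

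Polycomb proteins keep genes silent through chromatin. In mammals, EZH1 or EZH2 is the catalytic subunit of Polycomb repressive complex PRC2, which methylates a lysine of histone H3. A CBX protein of the complex PRC1 binds that mark, and PRC1, which holds a RING subunit and a partner such as BMI1, attaches ubiquitin to histone H2A. The CBX proteins take the same place in PRC1 and differ between cell types. EZH2 is known as the form of dividing cells and EZH1 as that of resting tissues, and both CBX7 and BMI1 are known to repress Cdkn2a, a locus that encodes inhibitors of the cell cycle.

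The starts of Cbx7 and Ezh2 are shown because Cbx7 carries the liver difference and because Ezh2 and Cbx7 were high in the same pair of SAT libraries. Each sequence is the 250 bases before the start that RefSeq gives in GRCm38, on the strand of the gene, and capitals mark a CCAAT box, written CCAAT or, on the opposite strand, ATTGG. RefSeq windows were matched for 6 of the 7 genes, all but Cbx2. The Cbx7 window is chr15:79932647-79932896 and the Ezh2 window chr6:47595031-47595280, both on the minus strand.
Cbx7: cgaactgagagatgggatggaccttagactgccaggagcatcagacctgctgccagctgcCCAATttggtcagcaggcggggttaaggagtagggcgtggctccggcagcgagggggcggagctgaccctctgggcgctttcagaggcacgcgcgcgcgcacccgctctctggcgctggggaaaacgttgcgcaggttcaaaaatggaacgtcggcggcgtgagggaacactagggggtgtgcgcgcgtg
Ezh2: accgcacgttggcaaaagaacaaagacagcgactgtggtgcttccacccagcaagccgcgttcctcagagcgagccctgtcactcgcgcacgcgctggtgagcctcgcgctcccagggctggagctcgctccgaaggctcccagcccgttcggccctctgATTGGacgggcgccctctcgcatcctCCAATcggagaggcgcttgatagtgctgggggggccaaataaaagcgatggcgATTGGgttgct
The Cbx7 window held 1 CCAAT box and the Ezh2 window 3, and 33.8% of 32851 windows of the same length held at least 1. Both windows had 23 CG dinucleotides, against a median of 6 over all windows, and the others had 14 (Ezh1), 20 (Cbx6), 21 (Bmi1) and 22 (Cbx8). The letters CACGTG, an E-box, were in the windows of Cbx6, Cbx8 and Bmi1 and in 6.02% of all windows. None of the E2F letters TTTCCCGC, TTTCGCGC, TTTGCCGC or TTTGGCGC was in any of the 6 windows on either strand, and 1.86% of all windows held one of these. The motifs did not overlap each other in these windows. These matches describe letters only.

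The genes lie on 4 chromosomes of GRCm38, and the coordinates are those of GENCODE M21 genes. Cbx7 (chromosome 15, 79915807 to 79971119, minus strand) and Cbx6 (79823896 to 79834688, minus strand) are near each other, as are Cbx2 (chromosome 11, 119022962 to 119031270, plus strand) and Cbx8 (119036305 to 119040969, minus strand). Ezh1 is on chromosome 11 (101191115 to 101226463, minus strand), Ezh2 on chromosome 6 (47530139 to 47595341, minus strand) and Bmi1 on chromosome 2 (18677018 to 18686629, plus strand). The RefSeq windows printed for Cbx7 and Ezh2 lie inside these GENCODE spans, so the annotations place the starts of both genes differently. No source used here gives the strand setting of the counting, so reads from shared exon bases cannot be assigned. Cbx7 shares 100 exon bases, 1.54% of its own, with Apobec3 on the opposite strand, and Ezh2 shares 174 bases (2.61%) with the noncoding gene Gm26625, which averaged 0.385 to 0.541 CPM in the 4 groups. Cbx6 shares 563 bases (5.31%) with Npcd, which had 0 counts in every library.

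Libraries held between 20307159 and 43618452 counts. Levels are in CPM, counts relative to a library's total after TMM scaling over all 20 libraries. Summed levels of 8 hepatocyte markers lay between 76220 and 106600 CPM in liver and between 11.8 and 31.2 CPM in SAT, and those of 8 adipocyte markers between 91.7 and 282.3 CPM in liver and between 8563 and 18860 CPM in SAT, so each library carried its labelled tissue. Sham SAT libraries 3 and 4 stood apart. Summed levels of 18 lymphocyte markers were 16.2 to 30.03 CPM in VAT removed SAT, against 977.8 and 1004 CPM in sham SAT 3 and 4 and 16.8 to 24.4 CPM in the other 3 sham SAT libraries. Results of sham SAT that turn on these libraries are also given without them.

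In liver, Cbx7 mRNA was higher in every VAT removed library than in any sham library. Cbx7 was at 20.5, 19.7, 19.2, 23.5 and 18.2 CPM in VAT removed livers 1 to 5, against 11.0, 9.21, 12.6, 13.5 and 9.46 CPM in sham livers 1 to 5. The groups do not overlap, and the lowest VAT removed library lies above the highest sham library. The means were 20.2 ± 1.99 CPM after VAT removal and 11.1 ± 1.87 CPM in sham (SD, n = 5 each), a fitted log2 difference of 0.87 ± 0.12 (SE), or 1.83-fold. These values rest on 322 to 566 counts after VAT removal and 256 to 343 counts in sham. Scaled by total counts without TMM they were 15.1 to 19.0 CPM after VAT removal and 7.76 to 10.1 CPM in sham, again without overlap. With any single library left out, the log2 difference lay between 0.82 and 0.94. This range describes the values from which Cbx7 was chosen and does not test them. The share of all genes tested in liver whose VAT removed group lay wholly above sham was 0.814%, and Cbx7 was chosen from this contrast, so nothing is read from that share.

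The other 6 genes overlapped between the liver groups. Cbx6, a further CBX paralog, was at 9.25, 21.6, 11.9, 15.3 and 15.7 CPM in VAT removed livers, against 8.83, 14.5, 13.0, 10.1 and 11.2 CPM in sham livers. Its VAT removed libraries 2, 4 and 5 lay above the whole sham range, and libraries 1 and 3 within it (log2 difference 0.36 ± 0.21). Cbx8 was at 8.41, 6.71, 7.59, 8.89 and 7.50 CPM after VAT removal and at 8.66, 6.27, 6.73, 6.60 and 5.43 CPM in sham. Its sham libraries 1 and 3 lay within the VAT removed range, and the log2 difference was 0.23 ± 0.14. Cbx2 averaged 14.1 ± 2.33 CPM after VAT removal and 13.4 ± 2.33 CPM in sham.

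Of the PRC2 pair, Ezh1 ran between 35.2 and 40.3 CPM in VAT removed livers, against 29.1 to 37.5 CPM in sham livers. All 5 VAT removed libraries lay above the sham mean by a small amount, a log2 difference of 0.10 ± 0.07. Ezh2 ran between 5.62 and 8.26 CPM after VAT removal and between 6.56 and 9.49 CPM in sham, at -0.09 ± 0.15. The 14 proliferating cell markers overlapped as well, at 55.7 to 105.4 CPM after VAT removal and 56.0 to 175.5 CPM in sham, and sham liver 2 was highest in both Ezh2 and that sum. Fitted values of 13 of these 14 markers were lower after VAT removal (median log2 difference -0.35), and the unadjusted p was under 0.05 for 1. Their part in the Ezh2 values was not tested. Bmi1 averaged 18.7 ± 1.95 CPM after VAT removal and 18.8 ± 2.36 CPM in sham, at 0.00 ± 0.11. Over all 17078 genes tested in liver the median log2 difference was 0.01. In edgeR 0 of them (0%) passed an adjusted p of 0.05, with 1691 (9.9%) at an unadjusted p under 0.05, while DESeq2 called 220.

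**Figure D1:**
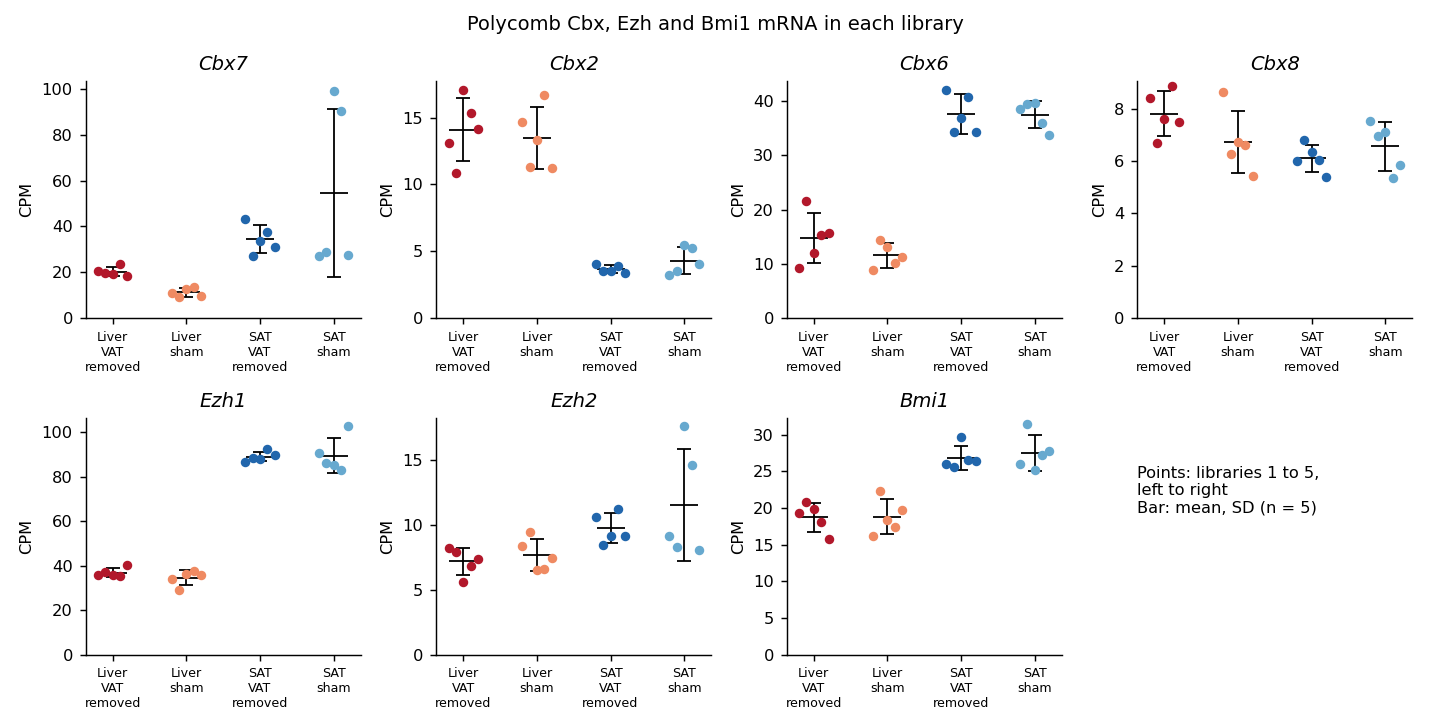
CPM of each of the 7 genes (y axes, each from 0) in VAT removed liver, sham liver, VAT removed SAT and sham SAT (x axes); points are libraries 1 to 5 from left to right, and bars are the mean and SD (n = 5). Cbx7 in liver lies between 18.2 and 23.5 CPM after VAT removal and between 9.21 and 13.5 CPM in sham, and sham SAT libraries 3 and 4 stand above the others for Cbx7 and Ezh2.

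Cell type markers in liver were set beside Cbx7. The lymphocyte markers summed to 47.4, 27.02, 23.4, 21.2 and 29.2 CPM in VAT removed livers 1 to 5 and to 18.1, 30.8, 17.2, 16.0 and 38.6 CPM in sham livers 1 to 5. These sums overlap between the groups, and the sham livers with the highest sums, 2 and 5, had the lowest Cbx7. Of 17 lymphocyte markers tested, 12 had higher fitted values after VAT removal (median log2 difference 0.27). At an unadjusted p under 0.05, 4 of them were higher and 0 lower, against 4.68% and 5.22% of all genes tested, and their part in the Cbx7 difference was not tested. Macrophage markers (8 genes) summed to between 371.5 and 738.3 CPM after VAT removal and between 291.7 and 492 CPM in sham. Summed interferon response genes (10 of 10 found) lay between 156.8 and 231.8 CPM after VAT removal and between 214.9 and 1675 CPM in sham, with the highest sums in sham livers 2 and 5 (421.2 and 1675 CPM), and their part in the Cbx7 difference was not tested. At an unadjusted p under 0.05, 9 of those 10 genes were lower after VAT removal, against 5.22% of all genes tested. None passed the adjusted test. Of the macrophage markers 7 of 8 had higher fitted values after VAT removal (median log2 difference 0.32, 1 higher at an unadjusted p under 0.05), and their part was not tested either. Apobec3, which shares exon bases with Cbx7, overlapped between the groups, at 8.79 to 14.0 CPM after VAT removal and 5.66 to 20.6 CPM in sham. In bulk tissue, fewer cells of a type and less RNA per cell cannot be told apart.

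In SAT, none of the 7 genes passed the test of VAT removal against sham, and Cbx7 and Ezh2 were high in 2 of the sham libraries. Cbx7 was at 43.3, 27.2, 33.5, 37.8 and 30.9 CPM in VAT removed SAT 1 to 5, against 27.2, 28.8, 99.1, 90.6 and 27.7 CPM in sham SAT 1 to 5. Sham libraries 3 and 4 lay far above every other library, and 4 of the 5 VAT removed libraries lay above the other 3 sham libraries. With all libraries the log2 difference was -0.64 ± 0.40 (edgeR adjusted p = 0.578, with all 5 VAT removed libraries below the sham mean), with an approximate 95% interval from -1.43 to 0.15. Without sham libraries 3 and 4 it was 0.32 ± 0.14 (adjusted p = 0.561), and over all alternatives run the adjusted p lay between 0.366 and 0.912.

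Ezh2 was highest in the same pair of sham libraries. It was at 10.6, 8.48, 9.15, 11.2 and 9.17 CPM in VAT removed SAT, against 9.17, 8.29, 17.7, 14.6 and 8.06 CPM in sham SAT. All VAT removed values lie under sham libraries 3 and 4 and overlap with the other 3 sham libraries. The log2 difference was -0.23 ± 0.22 with all libraries (adjusted p = 0.74) and 0.20 ± 0.12 without sham libraries 3 and 4 (adjusted p = 0.634).

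Libraries 3 and 4 averaged 3.40 times the other 3 sham SAT libraries for Cbx7, 1.90 times for Ezh2 and 1.499 times for Cbx2. For Cbx6, Cbx8, Ezh1 and Bmi1 that ratio lay between 0.902 and 1.01. The lowest lymphocyte marker sum of these 2 libraries was 40.1 times the highest of the other 3, and 14 proliferating cell markers summed to 206.9 and 169 CPM in them, against 67 to 94.7 CPM in the other 3. Adipocyte markers summed to 9829 and 8563 CPM in them and to between 15290 and 18860 CPM in the other 3. Apobec3, the antisense neighbour of Cbx7, was at 165.5 and 174.1 CPM there, against 23.4 to 43.8 CPM in the other 3. None of the 18 lymphocyte markers was at 0 in a whole SAT group, and the part of lymphocyte RNA in the Cbx7 and Ezh2 levels was not tested. Skeletal muscle markers (12 genes) varied more widely, summing to 24550 CPM in VAT removed SAT 2 and 2187 CPM in sham SAT 2, and Cbx7 in those libraries was at 27.2 and 28.8 CPM.

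**Figure D2:**
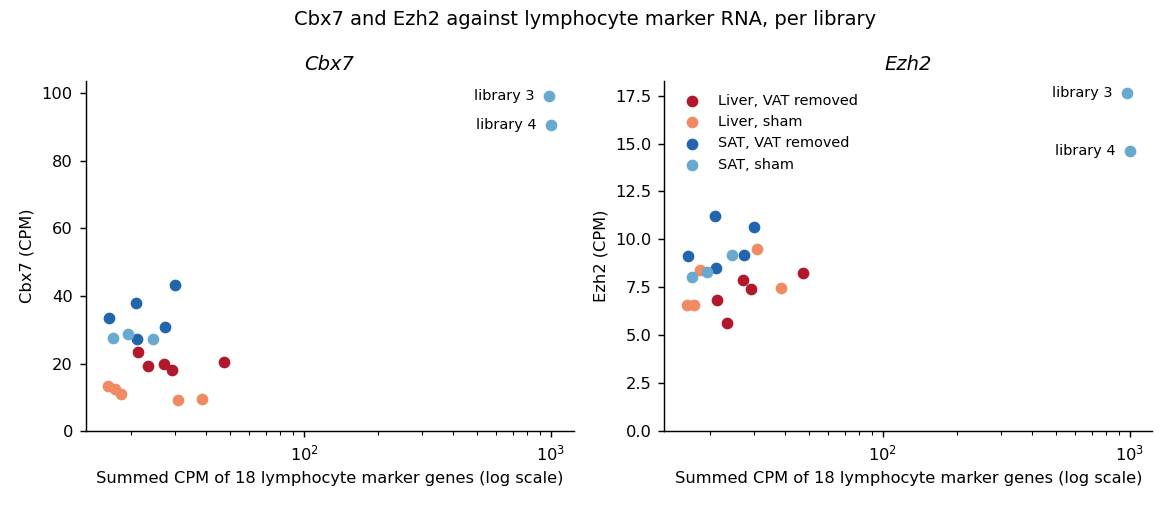
Cbx7 (left) and Ezh2 (right) in CPM (y axes, from 0) against the summed CPM of 18 lymphocyte markers (x axes, log scale), with 1 point for each of the 20 libraries coloured by group. Sham SAT libraries 3 and 4, at 977.8 and 1004 CPM of the markers, have the highest Cbx7 and Ezh2, and the other 18 libraries lie at 47.4 CPM of the markers or less.

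The remaining 5 genes had closer means in the SAT groups, and the groups overlapped for all 7 genes, where 1.48% of all genes tested in SAT did not overlap. Ezh1 was nearly level across libraries, at 86.7 to 92.3 CPM after VAT removal and 82.9 to 102.8 CPM in sham (log2 difference 0.01 ± 0.08, edgeR adjusted p = 0.982), with an approximate 95% interval from -0.14 to 0.16. Bmi1 averaged 26.8 ± 1.62 CPM against 27.5 ± 2.45 CPM in sham, and Cbx6 37.7 ± 3.62 CPM against 37.5 ± 2.495 CPM in sham (adjusted p = 0.945 and 0.947). Cbx8 averaged 6.11 ± 0.524 CPM against 6.56 ± 0.924 CPM in sham (adjusted p = 0.839). Cbx2, the lowest of the CBX genes in SAT, averaged 3.66 ± 0.267 CPM after VAT removal and 4.29 ± 1.02 CPM in sham (adjusted p = 0.674), and its log2 difference of -0.21 ± 0.17 was 0.04 without sham libraries 3 and 4. Of all 18530 genes tested in SAT, edgeR called 0 (0%), with 1973 (10.6%) at an unadjusted p under 0.05, while DESeq2 called 158.

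Side by side, the log2 difference of Cbx7 between VAT removed and sham mice was 0.87 in liver and -0.64 in SAT, or 0.32 in SAT without sham libraries 3 and 4. The difference between the tissues was not tested, since the liver values chose the gene. The other 6 genes differed by between -0.09 and 0.36 in liver and between -0.23 and 0.02 in SAT with all libraries. Without sham libraries 3 and 4 the SAT differences were 0.20 for Ezh2, 0.04 for Cbx2, -0.06 for Ezh1 and -0.07 for Bmi1.

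The tissues themselves differed in their Polycomb mRNAs, and this was tested among VAT removed libraries and again among sham libraries. All 7 genes passed the filter on low counts in every comparison. Cbx2 was higher in liver, while Cbx6, Cbx7, Ezh1 and Bmi1 were lower in liver than in SAT, in both sets. Cbx2 was at 10.9 to 17.0 CPM in VAT removed liver and 3.40 to 4.03 CPM in VAT removed SAT, a log2 difference of 1.94 ± 0.13 (edgeR adjusted p = 1e-07). Among sham libraries it was at 11.2 to 16.7 CPM in liver and 3.19 to 5.47 CPM in SAT (1.62 ± 0.18, adjusted p = 1.49e-05), or 3.08-fold. The liver libraries lay wholly above the SAT libraries each time.

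Cbx6 was lower in liver, at 9.25 to 21.6 CPM in VAT removed liver and 34.2 to 42.1 CPM in VAT removed SAT (log2 difference -1.35 ± 0.19, edgeR adjusted p = 5.95e-05). Among sham libraries the difference was -1.73 ± 0.13 (adjusted p = 6.1e-07). Cbx7 was lower in VAT removed liver than in VAT removed SAT by -0.77 ± 0.12 on the log2 scale (adjusted p = 0.000161). Among sham libraries its difference was -2.31 ± 0.41 (adjusted p = 0.00043), or -1.39 ± 0.12 without sham SAT libraries 3 and 4 (adjusted p = 6.06e-06). Cbx7 in each liver library was under every SAT library of its set. These tests of Cbx7 use the liver libraries from which the gene was chosen. Its differences between tissues and their p-values are therefore not independent of that choice. Cbx8 was higher in liver among VAT removed libraries (0.36 ± 0.11, adjusted p = 0.0137), with overlapping values, and did not pass among sham libraries (0.01 ± 0.16, adjusted p = 0.961, approximate 95% interval -0.30 to 0.32). Scaled by total counts without TMM, Cbx8 was at 5.61 to 7.21 CPM in VAT removed liver and 6.53 to 7.61 CPM in VAT removed SAT. The direction of its tissue difference thus depends on the scaling.

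Ezh1 was at 35.2 to 40.3 CPM in VAT removed liver and 86.7 to 92.3 CPM in VAT removed SAT, a log2 difference of -1.27 ± 0.06 (edgeR adjusted p = 3.04e-09). Among sham libraries it was -1.40 ± 0.10 (adjusted p = 2.68e-07), and no liver library reached a SAT library. Bmi1 was lower in liver by -0.52 ± 0.09 after VAT removal (adjusted p = 0.000204) and by -0.58 ± 0.11 in sham (adjusted p = 0.000587). Ezh2 was lower in liver among VAT removed libraries, at 5.62 to 8.26 CPM in liver and 8.48 to 11.2 CPM in SAT (-0.43 ± 0.13, adjusted p = 0.00964, or 0.0607 in 1 fit of all 20 libraries). In sham its difference of -0.61 ± 0.23 (adjusted p = 0.0397) was -0.20 without sham SAT libraries 3 and 4 (adjusted p = 0.297).

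Calls were common in these comparisons. Among VAT removed libraries 2 of the 7 genes were called higher in liver and 5 lower, where 34.7% of 18546 genes tested were called higher and 35% lower. Among sham libraries 1 was called higher and 5 lower, where 29.7% of 18449 genes were called higher and 35.3% lower. Liver and SAT did not overlap for 1 gene higher and 5 lower in liver among VAT removed libraries (28.9% and 30% of all genes), and for 1 higher and 4 lower among sham libraries (26.3% and 27.5%). The median log2 difference of the 7 genes was -0.52 after VAT removal and -0.61 in sham, against 0.01 and -0.11 over all genes tested.

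**Figure D3:**
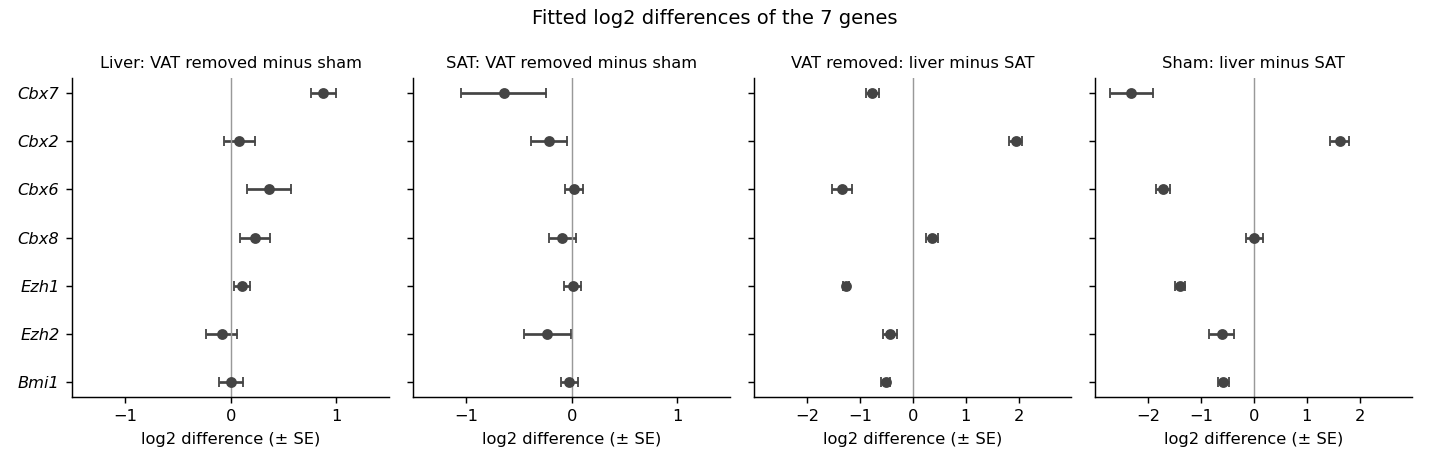
Fitted log2 differences (x axes, bars are SE) of the 7 genes in the 4 comparisons, from left to right VAT removed minus sham in liver and in SAT, and liver minus SAT among VAT removed and among sham libraries; the right pair has a wider scale. Cbx7 stands at 0.87 in liver, and Cbx2 and Cbx6 lie on opposite sides of 0 between the tissues.

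Levels of different genes were compared per length, as CPM per kilobase of annotated exon, the union over all annotated transcripts of a gene. For Cbx6 that union is 10609 bases, nearly its whole gene span, and which transcripts were present was not tested. The orders and shares of genes depend on these lengths. In CPM without length, Cbx6 averaged 11.5, Cbx7 11.1 and Cbx8 6.74 in sham liver. In VAT removed liver, Ezh1 (4.95 ± 0.278) and Bmi1 (4.72 ± 0.492 CPM per kilobase) were the most abundant of the 7, and their libraries overlapped. Cbx2 (3.31 ± 0.548) and Cbx7 (3.12 ± 0.307) followed, also overlapping, and Cbx7 lay wholly above Cbx8 (2.13 ± 0.230). Cbx6 (1.39 ± 0.438) and Ezh2 (1.08 ± 0.155) were lowest. In sham liver the order was Bmi1, Ezh1, Cbx2, Cbx8, Cbx7, Ezh2 and Cbx6, at 4.73, 4.64, 3.16, 1.83, 1.72, 1.15 and 1.09 CPM per kilobase. There the gap without overlap was between Cbx2 and Cbx8, so Cbx7 sat with Cbx2 after VAT removal and with Cbx8 in sham. This change of place restates the liver difference from which Cbx7 was chosen.

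In SAT, Ezh1 led with 12.0 CPM per kilobase in VAT removed and in sham libraries. After VAT removal Bmi1 (6.75), Cbx7 (5.33), Cbx6 (3.55), Cbx8 (1.66), Ezh2 (1.458) and Cbx2 (0.861 CPM per kilobase) followed, with overlap only between Bmi1 and Cbx7 and between Cbx8 and Ezh2. In sham SAT Cbx7 averaged 8.43 ± 5.67 CPM per kilobase, above Bmi1 at 6.93, with sham libraries 3 and 4 at 15.3 and 14.0. In the other 3 sham libraries Cbx7 averaged 4.30 ± 0.131 and Bmi1 7.15 ± 0.711 CPM per kilobase without overlap, so the order there was that of VAT removed SAT. Per kilobase, Ezh1 was at 4.66 ± 0.682 times the level of Ezh2 in VAT removed liver, 4.15 ± 0.975 times in sham liver, 8.28 ± 0.902 times in VAT removed SAT and 7.81 ± 3.00 times in sham SAT. Without sham SAT libraries 3 and 4, whose ratios were 4.32 and 5.10, the sham SAT ratio was 9.87 ± 1.39, above the VAT removed mean and overlapping with its libraries. The lowest ratio in any library was 2.75, so Ezh1 was the more abundant methyltransferase mRNA in all 20 libraries.

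Of the summed level per kilobase of Cbx2, Cbx6, Cbx7 and Cbx8, Cbx7 made up 31.4 ± 2.08% in VAT removed liver and 21.9 ± 1.85% in sham liver, without overlap. These liver shares restate the difference from which Cbx7 was chosen, so nothing further is read from them. Its share was 46.5 ± 3.26% in VAT removed SAT and 52.3 ± 15.5% in sham SAT, or 41.0 ± 1.64% in sham SAT without libraries 3 and 4, which turns the order of the SAT groups. Cbx2 made up 33.2 ± 4.45% in VAT removed liver and 40.3 ± 2.96% in sham liver, but 7.58 ± 0.376% in VAT removed SAT and 7.21 ± 1.44% in sham SAT. Shares of a sum depend on each other, and Cbx2 itself was not lower in VAT removed liver (3.31 CPM per kilobase, against 3.16 in sham). Cbx6 made up 14.0 ± 4.75% in VAT removed liver and 14.2 ± 3.76% in sham liver, and 31.2 ± 0.763% in VAT removed SAT and 26.8 ± 9.12% in sham SAT, or 33.4 ± 1.30% without libraries 3 and 4, which again turns the order. Cbx6 itself was at 3.55 CPM per kilobase in VAT removed SAT and 3.53 in sham SAT, or 3.51 without libraries 3 and 4.

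**Figure D4:**
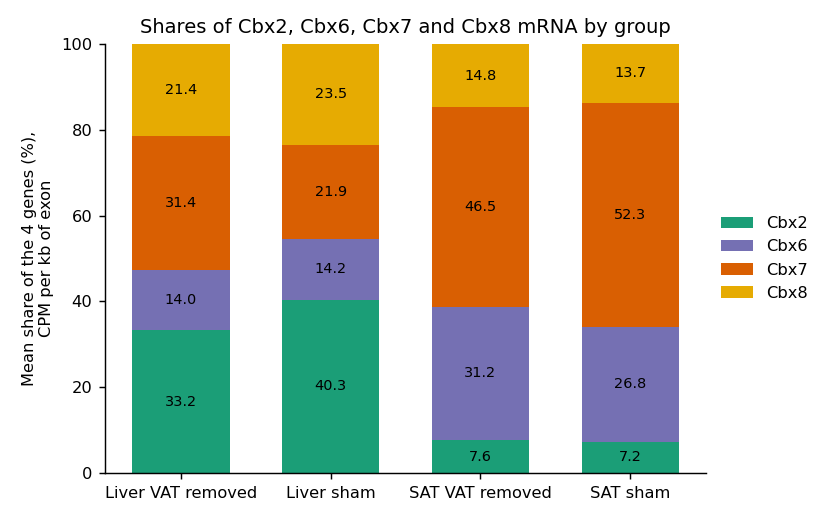
Mean share (y axis, %) of Cbx2, Cbx6, Cbx7 and Cbx8 in their summed CPM per kilobase of exon, by group (x axis, n = 5 libraries each). Cbx7 takes 31.4% in VAT removed liver and 21.9% in sham liver, and Cbx2 takes 33.2% in VAT removed liver and 40.3% in sham liver but 7.58% in VAT removed SAT and 7.21% in sham SAT. Shares depend on each other, and the level of Cbx2 was not lower in VAT removed liver than in sham liver.

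Of the other Polycomb genes, none passed the test in liver. Of 41 further genes of PRC1, PRC2, the H2A deubiquitinase complex PR-DUB and the demethylases of the PRC2 mark, 40 were tested in liver, and 0 passed over all genes. At an unadjusted p under 0.05, 4 were higher and 1 lower, against 4.68% and 5.22% of all genes. Smallest in p were Jarid2, a PRC2 accessory gene (0.18 ± 0.06, adjusted p = 0.363), and Asxl2, a PR-DUB gene (0.14 ± 0.06, 0.479). With lower values came Bap1, the catalytic subunit of PR-DUB (-0.14 ± 0.06, 0.48), then the PRC1 genes Yaf2 (-0.20 ± 0.11, 0.59) and Phc2 (-0.15 ± 0.10, 0.637). The HP1 genes Cbx1, Cbx3 and Cbx5, whose chromodomain proteins bind another histone mark, differed by -0.03, -0.02 and 0.11. The 40 genes had a median of 0.0047 on the log2 scale, against 0.01 over all genes.

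In SAT all 41 were tested and 0 passed over all genes, with 3 higher and 2 lower at an unadjusted p under 0.05, against 4.38% and 6.27% of all genes. Pcgf3, Bcorl1 and Auts2, all of PRC1 variants, had the smallest p with higher values (0.20 ± 0.07, 0.26 ± 0.10 and 0.31 ± 0.13, adjusted p = 0.431, 0.431 and 0.447). Rbbp4, a histone-binding subunit of PRC2, Epop, a PRC2 accessory gene, and Pcgf5, a paralog of Bmi1, had the smallest with lower values (-0.17 ± 0.07, -1.75 ± 0.69 and -0.19 ± 0.11, adjusted p = 0.433, 0.433 and 0.539). Without sham SAT libraries 3 and 4 the difference of Epop was -0.17 ± 0.50 (adjusted p = 0.929), and the median of the 41 was 0.08, against -0.06 with them. Then 3 were higher (Mbd6, Lcor and Pcgf3) and 0 lower at an unadjusted p under 0.05, against 4.7% and 4.07% of all genes. Bcorl1 and Auts2 were no longer among them (0.16 ± 0.08 and 0.17 ± 0.11, adjusted p = 0.597 and 0.668).

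Between liver and SAT, 13 of the 41 were called higher in liver and 15 lower among VAT removed libraries, and 10 higher and 14 lower among sham libraries. Over all genes tested 34.7% were called higher and 35% lower among VAT removed libraries, and 29.7% and 35.3% among sham libraries, so the shares of the 41 lie near the background. Without sham SAT libraries 3 and 4 the sham counts were 12 higher and 11 lower (29.3% and 26.8%). In that fit 31.2% of 19007 genes tested were called higher and 32.9% lower. Among sham libraries and among the called genes of the 41 that averaged 1 CPM or more, highest in liver relative to SAT were Phf19, a PRC2 accessory gene (1.499 ± 0.34, adjusted p = 0.00225), Pcgf6, a paralog of Bmi1 (1.36 ± 0.18, 5.87e-05), the MBT-domain gene Sfmbt1 (0.84 ± 0.07, 1.33e-06) and Lcor, whose locus also encodes a PRC2 accessory protein (0.70 ± 0.13, 0.000662). Lowest in liver among the called genes were the PR-DUB gene Asxl3 (-3.55 ± 0.44, 3e-05), Auts2 (-3.22 ± 0.23, 3.63e-07) and Phc1 (-1.77 ± 0.10, 6.66e-08). Epop was not called with all sham libraries (1.28 ± 0.63, edgeR adjusted p = 0.0952). Its difference was 2.825 ± 0.47 without sham SAT libraries 3 and 4 (adjusted p = 0.000471) and 2.61 ± 0.36 among VAT removed libraries (4.93e-05). Pcgf6 and Bmi1, which take the same place in PRC1, lay on opposite sides. Of the HP1 genes, Cbx5 was lower in liver in both sets (-0.83 ± 0.05 after VAT removal, adjusted p = 5.32e-08, and -0.98 ± 0.10 in sham, 4.66e-06).

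Classical Polycomb targets were read beside the 7 genes. Cdkn2a was at 2.64, 0.668, 0.897, 0.702 and 0.0644 CPM in VAT removed livers and at 0, 0, 0.261, 0.353 and 0.383 CPM in sham livers. Of the VAT removed livers, 4 lay above all sham livers and library 5 lay under 3 of them, with at most 69 counts in a library (log2 difference 2.30 ± 0.93, edgeR adjusted p = 0.464). The 2 sham livers with 0 counts allow up to 0.129 and 0.104 CPM (3 counts, counting error only). Cdkn2b, the neighbour of Cdkn2a in the genome, averaged 0.868 ± 0.328 CPM after VAT removal and 0.975 ± 0.425 CPM in sham liver (adjusted p = 0.938). Between sham liver and sham SAT it was lower in liver (-3.66 ± 0.29, adjusted p = 8.26e-07). Of 39 Hox genes, the textbook targets of Polycomb silencing, 4 averaged at least 1 CPM in VAT removed liver and 25 in VAT removed SAT, and 5 did so in sham liver and 23 in sham SAT. Hoxc8 averaged 0.0278 ± 0.038 CPM in sham liver and 65.6 ± 24.7 CPM in sham SAT, and Hoxc10 0.00869 ± 0.0194 CPM and 15.9 ± 5.44 CPM. Hoxc9 had 0 counts in all 5 sham livers, which allows at most 0.130 CPM in a library, and averaged 16.2 ± 6.14 CPM in sham SAT.

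The genes whose pattern was most like that of Cbx7 in liver were Tsc1, Smim20, Gm10804 and Gm15470. Their Pearson correlations were 0.946, 0.94, 0.939 and 0.935 over the 10 liver libraries, as deviations from group means of log2 CPM, among 14583 genes that averaged 1 CPM or more. For Ezh2 in SAT they were Chd8, Il23r, Ewsr1 and Reep2, at 0.993, 0.991, 0.99 and 0.988 over the 10 SAT libraries, among 15080 genes. The libraries share depth and tissue make-up, and in SAT sham libraries 3 and 4 carry much of the spread of Ezh2, so these values are a description.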

How the data were processed

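Sequencing libraries were made from total RNA without its ribosomal RNA, per the labels' protocols. Per the submitters' processing notes the tools were bcl2fastq, STAR 2.5.1a and featureCounts 1.46 of Subread, with GRCm38. The annotation, strand setting and treatment of multi-mapping reads are not given in the sources used. The authors deposited raw counts per gene symbol, 1 column per library. Of 40757 entries, 317 exact repeats were dropped. Groups came from the sample titles. Each comparison was fitted over its 10 libraries with edgeR's robust quasi-likelihood F-test (version 4.0.16, R 4.3.3) after filterByExpr and TMM, with Benjamini-Hochberg adjustment over all genes tested (threshold 0.05). The fit was tested on simulated counts. The SE comes from the F statistic, and approximate 95% intervals are the difference ± 1.96 SE. Log2 CPM for correlations used a prior count of 0.5. Alternatives were DESeq2 1.42.0, RLE scaling, no filter, a filter of 1 CPM in 5 libraries, a replicate block, 1 fit of all 20 libraries, each library left out, and sham SAT libraries 3 and 4 left out. The 7 genes, the lists and the alternatives were chosen with earlier results of these data known. Named list genes have the 3 smallest p each way after surgery, or, between sham tissues, the 4 largest called differences each way (3 for Hox genes) that averaged 1 CPM or more. A listed gene is not reported here.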

Additional observations from a re-analysis of the deposited data

Results flagged for a closer look

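Bmi1 in VAT removed SAT library 3 was at 29.6 CPM, apart from the other 4 libraries of its group, which lay between 25.5 and 26.6 CPM. Its gap to the nearest library was 0.739 of the group's range, above Dixon's 95% critical value of 0.71 for 5 libraries. It was the sole such gap in the 28 groups of 5 libraries searched (7 genes in 4 groups), and chance gives about 1 in 20.

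Cbx7 lay above the sham mean in all 5 VAT removed livers (log2 difference 0.87) and below the sham mean in all 5 VAT removed SAT libraries (-0.64). The difference between the tissues was not tested. The sham SAT mean of 54.7 CPM includes libraries 3 and 4 at 99.1 and 90.6 CPM. Without them the sham SAT mean was 27.9 CPM, and 4 of 5 VAT removed SAT libraries lay above the other sham values.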

How the results depend on the processing

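Over all alternatives run, the log2 difference of Cbx7 in liver lay between 0.82 and 0.94, in values from which the gene was chosen. Its SE was 0.12 in the fit reported and 0.32 in 1 fit of all 20 libraries. Counts of called genes moved most. In liver, where edgeR called 0, DESeq2 called 220 genes (89 higher, 131 lower), and no filter or a stricter filter gave 3 (1 higher, 2 lower). Leaving out single libraries gave 0 to 53 calls in liver (0 to 16 higher, 0 to 37 lower), the most without VAT removed liver 3. In SAT, where edgeR also called 0, DESeq2 called 158 (53 higher, 105 lower), and leaving out single libraries gave 0 to 1 (0 higher, 0 to 1 lower, the 1 without sham SAT 5). Without sham SAT libraries 3 and 4 the SAT differences changed sign for Cbx7 (0.32), Ezh2 (0.20), Cbx2 (0.0437) and Ezh1 (-0.0577), and the sham tissue difference of Cbx8 became -0.0701. Ezh1 in SAT was -0.0014 under the stricter filter and -0.00774 in 1 fit of all libraries, and Cbx8 between sham tissues -0.0109 with no filter. With single libraries left out, Ezh1, Cbx6 and Bmi1 in SAT ran from -0.03002 to 0.0657, -0.0213 to 0.0537 and -0.0694 to 0.0257, and Cbx8 between sham tissues from -0.0893 to 0.115. The sham tissue call of Ezh2 also ended without sham liver 1, 3, 4 or 5 or without sham SAT 3 or 4 (-0.38 to -0.69 over single libraries, adjusted p 0.0243 to 0.105). The cause was not tested. The labels tie no number to a mouse or batch, and same-numbered libraries did not all deviate together. Their correlations ran from -0.0516 to 0.189 in liver, where 4 of 5 numbers correlated best with their own, and from -0.225 to 0.307 in SAT (2 of 5). They ran from 0.0152 to 0.0687 between VAT removed tissues (4 of 5) and from -0.112 to 0.0726 between sham tissues (1 of 5). These correlations were not tested. The labels state no pairing, so whether the tissues are paired by mouse is not known, and the tissue tests treat them as unpaired. With the replicate block, edgeR called 0 genes in liver and 0 in SAT, 12525 between VAT removed tissues and 10985 between sham tissues, against 12920 and 11991 without it, and Ezh2 between sham tissues lost its call (-0.55, adjusted p = 0.124). Of 350 recomputed values of the 7 genes in the 3 tested comparisons, 322 kept direction and side of the threshold, 9 lost a call and 19 changed sign. Of the 112 untested liver values, all within 1 SD of the value reported, 10 changed sign: 8 of Bmi1 (down to -0.0453), 1 of Cbx2 (-0.0052) and 1 of Ezh2 (0.00435).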
